A study of Mus musculus with 8 samples.

Results

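The Notch receptors (*Notch1*, *Notch2*, *Notch3*, *Notch4*), their ligands (*Dll1*, *Dll4*, *Jag1*, *Jag2*) and the target genes *Hey1* and *Hey2* were examined for gained and lost chromatin accessibility in E10.5 mouse hearts that lack CHD4 in cardiomyocytes. These 10 genes were taken by name from the 21951 protein-coding genes of GENCODE release M21. An ATAC-seq peak was assigned to a gene if its nearest protein-coding transcription start site (TSS) was that of the gene, or if it lay within 10 kb of the gene body. The rule found 25 peaks among the 15736 in the data, 23 of the 12991 gained and 2 of the 2745 lost peaks. The study's text gives the same total of gained peaks and a slightly higher total of lost peaks.

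ATAC-seq uses the transposase Tn5 to cut and tag open DNA. The 8 samples comprised 4 *Chd4-CMko* and 4 WT samples at E10.5, each from pooled whole hearts of embryos of either sex. In *Chd4-CMko* embryos, Cre driven by the cardiomyocyte gene *Tnnt2* deletes floxed *Chd4*, and the controls (labelled WT) were littermates whose own alleles the sources used here do not list. The sample labels give 4 hearts per pool and the series text gives 3. Cells were dissociated and 40000 viable cells were taken per sample, without a sort for any cell type. Differential peaks were deposited as 2 lists, of sites more open in *Chd4-CMko* (gained) and of sites more open in WT (lost). The study's methods set the cutoff for a differential peak at a 2-fold change. Neither list had a value per sample, so no genotype test or replicate error can be given. The study's methods state an intended sequencing depth, but the files do not show the depth each sample reached, and whether a peak differed in each of the samples is unknown. A gained peak in whole hearts can reflect more cells of a type or more open DNA per cell, and these cannot be told apart here. Each peak has a score deposited by the authors, whose scale is not stated, so scores were compared within a list only, except in 1 alternative that applies a common limit to both lists and assumes the same scale.

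Notch signalling is a contact-dependent pathway. Delta-like and Jagged ligands on a cell bind Notch receptors on its neighbour, proteolysis releases the receptor's intracellular domain, and this enters the nucleus and joins the DNA-binding protein RBPJ to switch on genes of the Hes and Hey families. In the embryonic heart, Notch in the endocardium acts in trabeculation and in valve formation, *Dll4* and *Notch1* act in endothelial cells, and *Hey1* and *Hey2* help to set the boundaries between chamber and canal myocardium.

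Most of the genes had gained peaks, in lists that are themselves mostly gained. Of the 10 genes, 9 had at least 1 gained peak (90%, Wilson 95% interval 59.6 to 98.2%), against 37.4% of all protein-coding genes under the same rule. A lost peak was found for 2 of the 10 genes (20%, 5.67 to 51.0%), against 10.8% of all genes. *Notch2* had both kinds, *Hey2* had a lost peak and no gained peak, and the other genes had gained peaks alone. A gained peak within 3 kb of the gene's own TSS, termed a promoter peak, was present at 4 of the 10 genes (*Notch1*, *Notch3*, *Dll4* and *Jag2*), against 12.4% of all genes. Within 1 kb of the TSS the count was 2 (*Notch3* and *Jag2*), against 9.23% of all genes. None of the 10 had a lost promoter peak, which 1.24% of all genes had. Gained peaks made up 92.0% of the 25 peaks of the set (75 to 97.8%), an interval that includes the 82.6% of both lists together. Counting only peaks in or within 10 kb of a gene body left 9 gained peaks at 7 of the 10 genes and 1 lost peak, against 30.3% and 7.30% of all genes with a gained or lost peak under that rule, and gained promoter peaks at 4 genes. All intervals given here account for counting error alone and treat peaks as independent, which those of 1 locus are not.

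**Figure D1:**
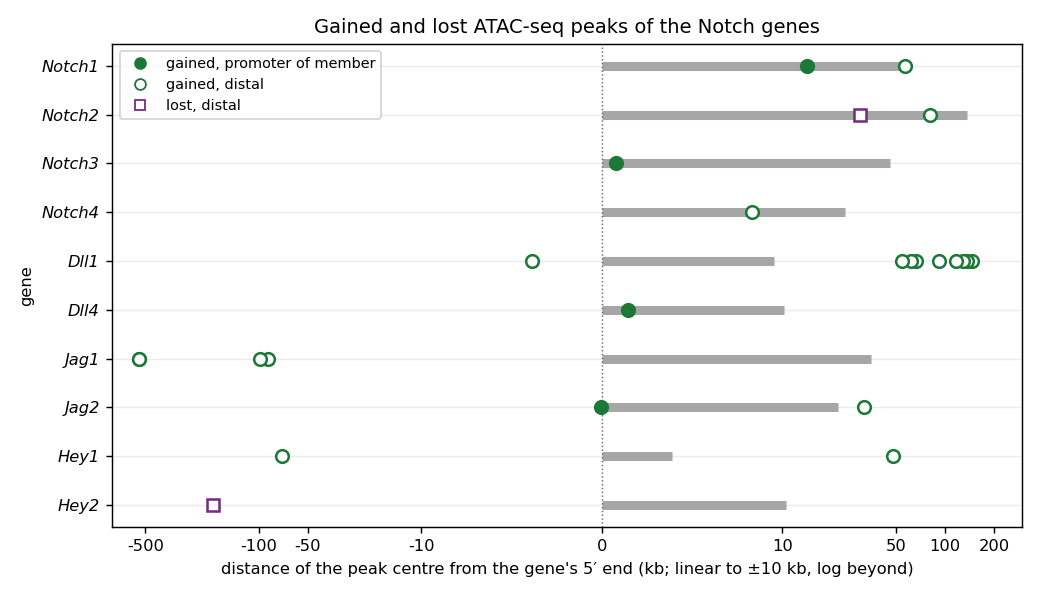
Position of the 23 gained (circles) and 2 lost (squares) peaks of the 10 genes, as the distance of the peak centre from the gene's 5′ end in kb (negative is upstream; linear within 10 kb, logarithmic beyond). Grey bars are gene bodies and filled circles are promoter peaks of the gene. The filled circle of *Notch1* is 14.2 kb into the gene because it lies beside an internal TSS, and the most distant pair of *Jag1* peaks overlap in the plot.

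The sequences below are those of the promoter peaks with the highest score that overlap no untranslated region, the downstream *Jag2* peak with the highest score of the set, the only peak of the set with an RBPJ core string, the higher of the lost peaks, and 2 peaks of *Dll1* (its highest and the one just upstream), added after the values were seen because that gene had the most peaks. They are 151 bp of the mm10 (GRCm38) plus strand. Capitals mark matches of 9 strings searched on both strands without mismatch. Those bound by the Notch machinery were the RBPJ core, which is the string TGGGAA, and a paired site made of 2 such cores that face each other 15 to 17 bases apart, so that it contains the core. The others were the E box CACGTG, to which Hey proteins and many other bHLH factors bind, the GATA factor string AGATAAG, the string ACATTCC known from TEAD factors, the MEF2 factor string in which CTA and TAG stand 4 bases apart, the ETS factor string ACAGGAAG, the CCAAT box of the factor NFY, and GGGNGNGGC, which belongs to factors of the KLF family.
Notch1 promoter, gained: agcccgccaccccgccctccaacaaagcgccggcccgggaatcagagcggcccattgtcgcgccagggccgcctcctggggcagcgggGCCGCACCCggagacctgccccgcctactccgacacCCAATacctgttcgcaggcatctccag
Notch3 promoter, gained: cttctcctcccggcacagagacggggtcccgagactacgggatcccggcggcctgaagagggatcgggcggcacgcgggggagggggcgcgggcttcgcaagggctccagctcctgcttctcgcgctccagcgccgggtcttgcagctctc
Dll4 promoter, gained: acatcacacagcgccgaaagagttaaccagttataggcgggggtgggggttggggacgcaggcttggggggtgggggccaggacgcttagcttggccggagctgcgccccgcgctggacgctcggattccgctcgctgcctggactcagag
Jag2 downstream, gained: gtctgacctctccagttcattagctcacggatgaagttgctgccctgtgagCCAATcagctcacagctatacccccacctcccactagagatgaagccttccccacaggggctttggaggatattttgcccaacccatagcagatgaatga
Jag1 distal, gained: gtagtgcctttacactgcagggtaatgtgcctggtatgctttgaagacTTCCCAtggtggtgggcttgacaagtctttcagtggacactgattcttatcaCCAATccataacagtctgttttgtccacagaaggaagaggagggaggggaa
Dll1 distal, gained: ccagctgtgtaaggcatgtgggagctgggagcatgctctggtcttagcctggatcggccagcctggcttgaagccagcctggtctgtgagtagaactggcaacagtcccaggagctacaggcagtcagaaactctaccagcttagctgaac
Dll1 upstream, gained: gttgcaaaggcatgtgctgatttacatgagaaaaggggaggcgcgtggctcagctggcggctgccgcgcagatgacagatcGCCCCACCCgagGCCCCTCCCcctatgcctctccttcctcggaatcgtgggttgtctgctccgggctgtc
Notch2 intron, lost: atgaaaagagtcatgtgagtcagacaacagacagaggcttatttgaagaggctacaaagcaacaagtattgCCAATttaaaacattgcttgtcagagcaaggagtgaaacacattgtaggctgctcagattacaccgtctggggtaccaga

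The *Notch1*, *Notch3* and *Dll4* sequences come from chr2:26502419-26502569, chr17:32166012-32166162 and chr2:119327154-119327304. The *Jag2* and *Jag1* sequences come from chr12:112898002-112898152 and chr2:137661094-137661244, the *Dll1* ones from chr17:15285498-15285648 and chr17:15380669-15380819, and the *Notch2* one from chr3:98043249-98043399. The promoter sequences are rich in C and G: GC content was 72.2% at *Notch1* and *Notch3* and 66.9% at *Dll4*, against a median of 55.0% over all gained peaks. Of those, only 23.1% lay within 3 kb of a protein-coding TSS, and a GC median of these alone was not computed. The *Notch2* lost sequence had 42.4% GC, against a median of 50.3% over the lost list.

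All 4 receptor genes had a gained peak, 5 peaks in all, with scores from 44.5 to 291.5. *Notch3*, the receptor best known from vascular smooth muscle, had the highest of these. Its single gained peak scored 291.5, at or above 97.1% of the gained list, and lay in an intron 690 bp from the TSS. The sequence carries 17 CpG dinucleotides and no match to the strings searched.

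*Notch1*, the main endocardial and endothelial receptor, had 2 gained peaks, both inside the gene. The promoter peak scored 218.5, at or above 93.2% of the list. It lay 1253 bp from an alternative TSS within the gene and 14.2 kb from the gene's 5′ end, in an intron. It is therefore a promoter peak of an internal start and not of the first one. The other scored 139.0 (82.5%) at chr2:26459541-26459691, over an exon close to the 3′ end, 57 kb from the 5′ end. It lay 3056 bp from the nearest *Notch1* TSS, just beyond the promoter window, and 2397 bp from the TSS of the noncoding gene *Gm13568*.

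*Notch4*, a receptor largely restricted to endothelium, had 1 gained peak with a score of 45.0, at or above 31.7% of the list. It lay over an exon at chr17:34572501-34572651, 5357 bp from the nearest *Notch4* TSS. *Notch2* was the only gene of the set with peaks in both directions, both in introns. The lost peak scored 79.8, at or above 92.6% of the lost list, 29.7 kb from the TSS. The gained peak at chr3:98094035-98094185 scored 44.5, at or above 31.0% of the gained list, 80.5 kb from the TSS. It belongs to *Notch2* only because it lies in the gene, since its nearest TSS is that of *Adam30*. The gained and lost peaks are 50.6 kb apart. So the receptors fell into a pair with gained peaks high in the list (*Notch1*, *Notch3*) and a pair with gained peaks in its lower part (*Notch2*, *Notch4*).

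The 4 ligand genes held most of the set's peaks, 16 of the 23 gained and 0 of the 2 lost. *Jag2*, a Jagged-family ligand, had 2 gained peaks that were both near the top. The peak over its TSS, at chr12:112929756-112929906, scored 248.0 (at or above 95.1% of the list), overlapped the first exon and its untranslated region, and had 72.2% GC and 18 CpG dinucleotides. This peak is also within 10 kb of *Nudt14*. The other, 9667 bp beyond the 3′ end of the gene and 12.2 kb from the nearest *Jag2* TSS, scored 305.5 (97.5%), the highest of all members.

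*Dll4*, the ligand of arterial endothelium and endocardium, had 1 gained peak, with a score of 154.0, at or above 85.5% of the list. It lay in an intron within the first part of the gene, 1370 bp from the 5′ end and 1234 bp from the nearest *Dll4* TSS. The TSS of the noncoding gene *Gm14207* was closer still, at 960 bp.

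*Jag1*, a ligand of endocardium and of vascular smooth muscle, had 4 gained peaks, all of them upstream, outside protein-coding genes and away from its promoter. Their scores were 63.0 (87.9 kb upstream), 47.5 (99.1 kb), 53.0 (544 kb) and 75 (548 kb). All sat near the middle of the list, between 34.9% and 59.7%. The 2 most distant ones were assigned to *Jag1* only because no other protein-coding TSS is closer in this gene-poor stretch. They lay 2191 bp and 1506 bp from the TSS of the noncoding gene *Gm14064*, the latter within that gene. *Jag1* had the most DNA nearest to its TSSs of the 10 genes, 691 kb.

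*Dll1*, a Delta-like ligand, had 9 gained peaks and no lost peak. Only 79 of the 21951 protein-coding genes (0.360%) had at least as many, *Dll1* included. A single peak lay just upstream, 3797 bp from the TSS, with a score of 121.5 (78.4%). The remaining 8 formed a run of 93.0 kb on the 3′ side of the gene, at chr17:15229248-15322254, with gaps of 4.62 to 25.4 kb between neighbours. The run holds no protein-coding gene and no lost peak. Its nearest end is 45.1 kb from *Dll1*, and its far end is 139 kb from the body of the next protein-coding gene, *Ermard*.

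From the far end of the run towards *Dll1*, the scores were 139.5, 91.0, 145.5, 36.0, 213.0, 27.5, 74.0 and 21.5. The lowest score was that of the peak nearest to *Dll1*. The highest, 213.0, was at or above 92.7% of the gained list, and the lowest, 21.5, was at or above only 0.416%. Of the 8 peaks, 5 were at or above the list's median score of 62.5. High and low peaks alternated along the run.

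Genes that do not code for protein lie within the run. The peaks with scores of 91.0 and 145.5 were 39 bp and 26 bp from a TSS of *Gm5091*, a long intergenic noncoding RNA gene. The peak of 213.0 was 140 bp from the TSS of *Gm35576*, another such gene, and that of 21.5 was 222 bp from the start of *Gm7423*, a processed pseudogene. The peak with a score of 74.0 lay wholly in annotated repeat sequence, and that of 91.0 was 86.8% repeat. For all 8 peaks of the run the nearest start of any gene is that of a noncoding gene or pseudogene, not of *Dll1*. With TSSs of every biotype, or with gene bodies and 10 kb flanks alone, *Dll1* keeps only its upstream peak. Its count of 9 gained peaks therefore depends on the use of protein-coding TSSs at any distance. The lists do not show which gene a site acts on.

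*Hey1* and *Hey2*, which encode transcriptional repressors of the bHLH class that act downstream of Notch, had no promoter peak in either list. *Hey1* had 2 gained peaks, 47.3 kb downstream at chr3:8619200-8619350 with a score of 64.0 and 72.6 kb upstream at chr3:8739835-8739985 with a score of 91.0. *Hey2* had a single lost peak with a score of 22.7, at or above 14.6% of the lost list, 193 kb upstream at chr10:31035759-31035909 in an intron of the noncoding gene *Gm30676*. That lost peak was absent when each list was limited to its higher scores, with the nearest TSS limited to 100 kb, with TSSs of every biotype and with gene bodies and flanks alone, so the direction of *Hey2* rests on 1 distant, low-scoring site. The peak of *Hey1* closest to a TSS of its own gene was 47.3 kb from it, and a pseudogene start (*Gm18822*) was nearer, at 2696 bp.

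**Figure D2:**
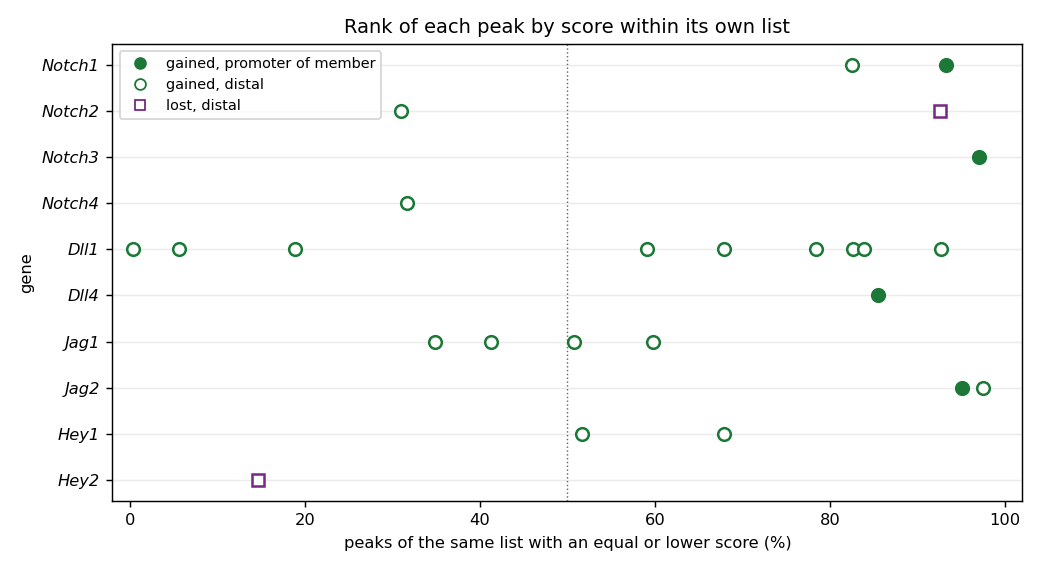
Rank of each of the 25 peaks by score within its own list, as the percentage of peaks of that list with an equal or lower score. Filled circles are promoter peaks, open circles distal gained peaks and squares lost peaks, and the dotted line is the middle of the list. All 4 promoter peaks lie at 85.5% or above, while the *Dll1* peaks run from 0.416% to 92.7%.

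Taken by score, the set's gained peaks leaned to the upper part of the list. Their median score was 91.0 (range 21.5 to 305.5), against 62.5 for the list, 16 of 23 were at or above the list's median, and 5 of 23 were among its 1300 highest. Those 5 belong to *Notch1*, *Notch3*, *Dll1* and *Jag2*. The 4 promoter peaks had a median score of 233 (154.0 to 291.5) and the 19 distal ones 74.0 (21.5 to 305.5). Promoter peaks scored higher in the gained list as a whole too, with a median of 122.5 over 2995 peaks.

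By position, the set's gained peaks were more often far from coding start sites, and this rested in part on *Dll1*. Of the 23 gained peaks, 13 (56.5%, 36.8 to 74.4%) were over 50 kb from any protein-coding TSS, against 26.0% of the other gained peaks, a difference of 30.5 percentage points (Newcombe 95% interval 10.8 to 48.3). These were 7 peaks of *Dll1*, 4 of *Jag1* and 1 each of *Notch2* and *Hey1*. Without *Dll1* the share was 6 of 14 (42.9%, 21.4 to 67.4%), and the difference of 16.8 points had an interval that included 0 (-4.67 to 41.4). Distance to a protein-coding TSS is also what the rule uses. A gene with little DNA nearest to its TSSs can hold few peaks this far away. The set had a median of 111 kb of such DNA, against 45.0 kb over all protein-coding genes. How far the difference reflects gene spacing was not tested. The promoter share of the set's gained peaks, 4 of 23 (17.4%, 6.98 to 37.1%), differed from that of the others (23.1%) by -5.67 points, with an interval of -16.1 to 14.1. It was 28.6% without *Dll1*.

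Many of the set's gained peaks lay near noncoding starts. Of the 23, 9 (39.1%, 22.2 to 59.2%) were within 3 kb of the TSS of a gene that does not code for protein (noncoding RNA genes and pseudogenes), against 11.4% of the gained list. The 9 were 4 of *Dll1*, 2 of *Jag1* and 1 each of *Notch1*, *Dll4* and *Hey1*. Among peaks beyond 3 kb of a protein-coding TSS the count was 8 of 19 (42.1%, 23.1 to 63.7%), against 10.2% over the list. This was noticed after the values were seen and is given as a description. Without such peaks the set had 14 gained peaks, of which 13 had a member's TSS as the nearest, at 7.53 per Mb of the DNA nearest to its TSSs (exact Poisson 95% interval 4.01 to 12.9), which includes the 4.22 of the genome under the same filter. A gained peak was then present at 8 of the 10 genes, against 34.5% of all genes.

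**Figure D3:**
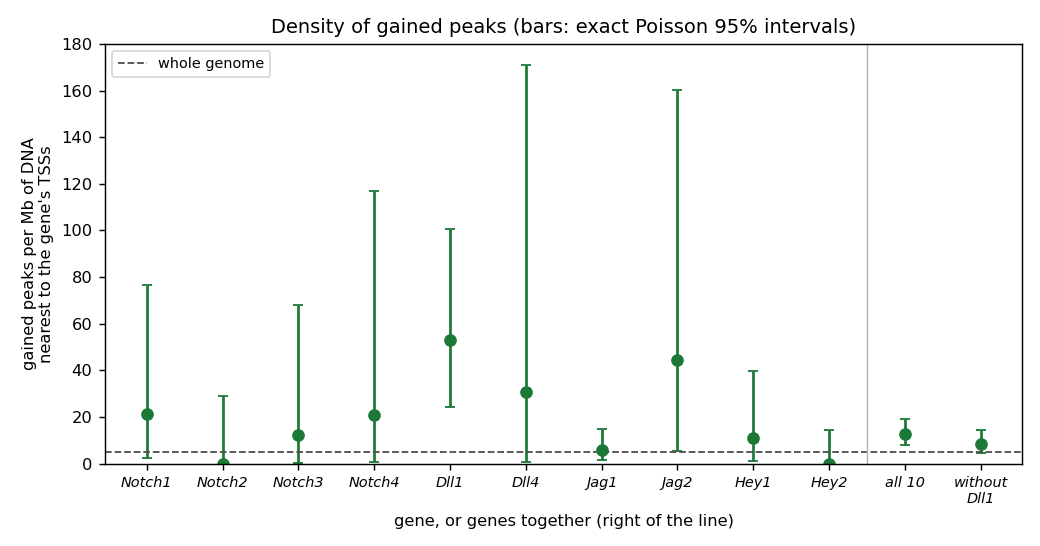
Gained peaks per Mb of the DNA whose nearest protein-coding TSS is that of the gene, for each gene and for the genes together, with exact Poisson 95% intervals that cover counting error only. The dashed line is the whole genome at 4.77 per Mb. The lower bounds of *Dll1* and *Jag2* lie above the line, and *Notch2* and *Hey2* are at 0. The lower bound of *Jag2*, 5.37, is below the 6.06 per Mb of the genes within the set's size range.

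Genes with more DNA around them can collect more peaks, and the 10 genes had more of it than most: a median of 111 kb nearest to their TSSs, against 45.0 kb over all protein-coding genes. Among the 12630 genes within the set's range of this size, 44.3% had a gained peak and 14.8% a lost one. Per Mb of this DNA the set had 12.7 gained peaks (22 peaks in 1.73 Mb, exact Poisson 95% interval 7.99 to 19.3). The value was 4.77 over the genome and 6.06 over the 12630 genes of that size range. *Dll1* alone had 53.1 per Mb (24.3 to 101), *Jag2* 44.4 (5.37 to 160.2) and *Jag1* 5.79 (1.58 to 14.8). Without *Dll1* the other 9 genes had 8.35 per Mb (4.45 to 14.3), an interval that includes the genome's value. Lost peaks were at 1.16 per Mb (0.140 to 4.19), against 1.01 over the genome and 1.29 over the genes of that size range.

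Matches to motif strings were few. The RBPJ core was found in 1 of the 23 gained peaks (4.35%, 0.772 to 21.0%), the *Jag1* peak shown above, where it reads on the minus strand, against 13.9% of all gained peaks. It was in 0 of the 2 lost peaks, against 12.9% of the lost list. The paired RBPJ, GATA and MEF2 strings were in 0 of 23, and the E box, TEAD and ETS strings in 1 of 23 each, against 0.00770%, 5.45%, 3.86%, 4.79%, 3.76% and 2.41% of all gained peaks. NFY and KLF strings were each in 7 of 23 (30.4%), against 29.3% and 24.4%. In the capitals above, NFY strings appear in *Notch1*, *Jag2*, *Jag1* and the lost *Notch2* peak, and KLF strings in *Notch1* and, as 2 matches, upstream of *Dll1*. For each of the 9 strings, the difference between the set and the other gained peaks had an interval that included 0. In windows of 250 bp to each side of the peak centre the RBPJ core was in 52.2% of the set's gained peaks, against 42.0% of all gained peaks. No interval was computed for these windows, and that of the 151 bp peaks includes the list's share. No difference from the list is therefore read from either. A peak of 151 bp that lacks the letters says nothing of binding beside it.

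The rest of the pathway was described with 44 further genes, listed by role. Of these, 27 (61.4%, 46.6 to 74.3%) had a gained peak and 6 (13.6%, 6.40 to 26.7%) a lost one, beside the 37.4% and 10.8% of all genes. Each of the 6 with a lost peak also had a gained peak, and 17 had neither. Gained peaks were most common among genes of ligand endocytosis and of receptor turnover, 11 of 12, the exception being *Itch*. None of the 5 genes that glycosylate the receptor (*Lfng*, *Mfng*, *Rfng*, *Pofut1*, *Poglut1*) had a peak of either kind. Their interval of 0 to 43.4% includes the 37.4% of all genes. Each has only 10.3 to 39.0 kb of DNA nearest to its TSSs, against 11.4 to 510 kb for the turnover genes. Whether this size difference accounts for the counts was not tested. Gained peaks were found for 4 of 9 proteases, 6 of 9 genes of the nuclear complex, 4 of 5 targets and 2 of 4 other ligands and related genes.

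**Figure D4:**
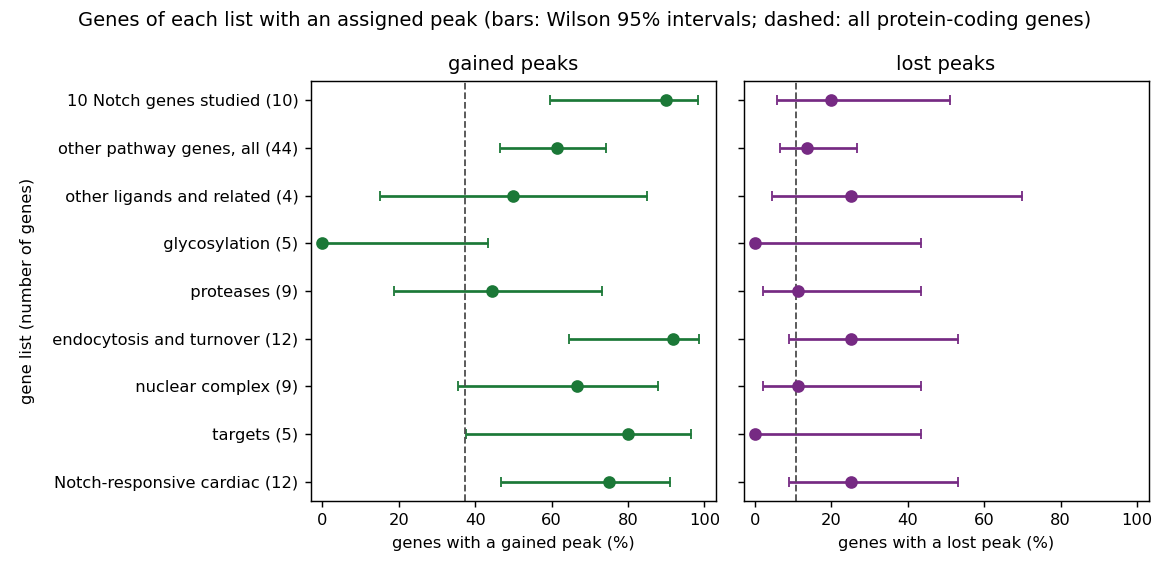
Share of the genes of each list with at least 1 gained (left, green) or lost (right, purple) peak, with Wilson 95% intervals; the number of genes is in parentheses and dashed lines are all protein-coding genes (37.4% and 10.8%). Endocytosis and turnover genes reach 91.7% in the gained panel, and the glycosylation genes are at 0 in both, with intervals up to 43.4%.

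Within the turnover group, *Neurl1a* and *Neurl1b*, which encode E3 ubiquitin ligases of the Neuralized family that act on Notch ligands, each had 2 gained promoter peaks. The *Neurl1a* ones scored 348.5 (directly over a TSS) and 165.5 (19 bp away), at or above 98.7% and 87.1% of the list. The *Neurl1b* ones scored 151.0 and 129.5. *Mib2* (62.0), *Dtx1* (60) and *Dtx3* (122.5), which also encode ubiquitin ligases, each had 1. *Fbxw7*, which encodes the subunit of a ubiquitin ligase that marks the Notch intracellular domain for degradation, was the only gene of the 44 with a lost promoter peak. That peak scored 40.1, at or above 58.3% of the lost list, directly over a TSS, and *Fbxw7* had 5 gained and 1 more lost peak, all distal. *Mib1*, whose ubiquitin ligase acts on ligands, had 1 gained and 3 lost peaks, all distal.

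In the nuclear complex, *Maml3*, a coactivator of the Mastermind family, had 10 gained peaks, the most of the 44 genes, with scores from 45.0 to 284.5 and none at a promoter. *Maml2*, of the same family as *Maml3*, had 2 gained and 2 lost peaks. Among proteases *Psen2*, a catalytic subunit of gamma-secretase, had a gained peak over a TSS (95.5), and *Dner*, a transmembrane protein related to the Delta ligands, had one at 533 bp (71.5). Of the targets, *Heyl* had a gained peak 59 bp from its TSS with a score of 268.0 (96.1%) and *Hes5* one at 2495 bp with a score of 118.5. *Hes1* had 4 distal gained peaks with scores from 32.5 to 105.0, and none of the targets had a lost peak.

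A last group held 12 genes that respond to Notch in the heart or its vessels, of which 9 had a gained peak (75%, 46.8 to 91.1%) and 3 a lost one (25%, 8.89 to 53.2%), beside the 37.4% and 10.8% of all genes. By gene bodies and their 10 kb flanks alone the counts were 5 and 1, beside 30.3% and 7.30%. Per Mb of the DNA nearest to their TSSs, the 12 genes had 6.68 gained and 1.01 lost peaks. The genome had 4.77 and 1.01, and the genes within the size range of the set 6.06 and 1.29. Gained promoter peaks were present at *Egfl7*, an endothelial secreted factor (278.0, over a TSS), *Bmp2*, a signal for valve formation (263.0, 2623 bp away), and *Tbx2*, a repressor of chamber identity in the atrioventricular canal (240.5, 2351 bp away). *Efnb2*, an arterial ephrin, had 9 gained and 3 lost peaks, all distal, and *Nrg1*, the endocardial growth factor for trabeculae, 6 gained and 1 lost. *Efnb2* and *Nrg1* have 1.80 and 1.58 Mb of DNA nearest to their TSSs. *Wnt4* had 6 gained peaks, 12.1 to 89.6 kb from its TSS.

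Markers of the cell types of the heart were counted under the same rule because the hearts were not sorted. A gained peak was found for 8 of 10 endothelial and endocardial, 6 of 10 cardiomyocyte, 4 of 7 smooth muscle and fibroblast, 2 of 5 epicardial, 2 of 5 neural and 0 of 6 erythroid markers. A lost peak was found for 3, 1, 1, 4, 1 and 5 of them, in the same order. Beside these stand the 37.4% and 10.8% of all genes with a gained or a lost peak. The interval of each list's gained share except that of the erythroid markers overlapped that of the 10 Notch genes, and erythroid markers had lost peaks alone. The lists hold no levels, so a summed marker level per sample could not be had, and the part of cell make-up in the Notch results was not tested.

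At the edge of the 10 kb window, the *Jag2* downstream peak lay 9667 bp from the gene body, inside it. The nearest gained peak outside was 12.9 kb from *Notch3*, with a score of 161.0, and its nearest TSS was that of another gene.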

How the data were processed

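Per the labels and the study's methods, the authors isolated nuclei from 40000 viable cells per sample, treated them with Tn5, aligned reads to mm10 with BWA-MEM, ran HOMER 4.10.3 to find peaks and used ChIPseeker 1.20.0 for annotation. Read filters, duplicates, the Tn5 shift and the way samples were merged into 1 list per genotype are not given in the sources used here, and each can change which peaks are listed. The deposited files are 2 BED lists whose value is a score given by the authors, on a scale that is not stated. All gained and 2744 lost peaks were 151 bp wide, and 1 lost peak was 131 bp wide.

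Coordinates were used with GRCm38 and GENCODE M21. Peaks were assigned with Python (version 3.11.15), and TSSs of all transcripts of a protein-coding gene were used. Shares have Wilson intervals, differences Newcombe intervals and densities exact Poisson intervals, all at 95%. Assignment and string search were tested on simulated data and were right in 100% of 2000 intervals and 5000 strings. The members and gene lists were chosen with earlier results of these data known. The text names all 10 members, the listed genes with a promoter peak, and those with the most peaks, including ties. One listed item is not reported here. Genes named as exceptions (*Itch*, the glycosylation genes) and *Hes1* were added after values were seen.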

Additional observations from a re-analysis of the deposited data

How the results depend on the processing

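Of 153 values recomputed under other settings, 127 stayed within the limits set for a change (a count within 1.5 times the one reported, a share within its interval) and 26 moved. The RBPJ core share of the gained peaks passed from below that of the list to above it in wider windows. The first was within counting error of the list, and the second had no interval. With the gene body and its 10 kb flanks alone, the set had 9 gained peaks and 1 lost peak, in 1 gene, the promoter share was 44.4%, and 5 Notch-responsive genes had gained and 1 a lost peak. Using TSSs of genes of every biotype also gave 9 gained peaks, 1 lost peak in 1 gene, 44.4% and 1 Notch-responsive gene with a lost peak. By construction the first drops far peaks and the second those with a closer noncoding start. In the upper part of each list, above a common score of 36.8 (which assumes that both lists share a scale), and with the nearest TSS limited to 100 kb, the set kept 1 lost peak in 1 gene (*Notch2*, *Hey2* being lost from the count), and 1 Notch-responsive gene had a lost peak. A promoter window of 1 kb left 2 genes with a gained promoter peak (*Notch3* and *Jag2*). Without peaks within 3 kb of a noncoding TSS there were 14 gained peaks and 7.53 per Mb. The RBPJ core share was 0% with a longer string, 0% in the upper part of the list, and 52.2% in windows of 250 bp to each side of the peak centre, where it was 42.0% over the gained list. Members with a gained peak numbered 7 to 9 under each setting, while the share of all genes ranged from 24.7% to 56.7%. The limit of 100 kb and the noncoding filter were chosen after the data were seen. No paired analysis was possible because the lists have no columns for samples, and no replicate could be left out. The depth each sample reached is not in the files.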
